A study of Homo sapiens with 6 samples.

Results

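The miRNAs that lie inside the HOX gene clusters were followed in MDA-MB-231 cells, an established human triple-negative breast cancer line, with and without Withaferin A (WA). They were chosen by name, as every listed miRNA of the miR-10a, miR-10b, miR-196a, miR-196b and miR-615 hairpins. This gave 5 of the 413 listed miRNAs, namely hsa-miR-10a-5p, hsa-miR-10a-3p, hsa-miR-10b-5p, hsa-miR-196a-5p and hsa-miR-615-3p, written without the species prefix from here on. The other arms of these hairpins and miR-196b were not analysed here. The 3 WA libraries came from cells exposed to 2 µM of this steroidal lactone for 24 h, and the 3 control libraries from cells cultured for the same 24 h without it. The sample labels call the control cells untreated, while the study's methods describe them as given DMSO, the vehicle. No transgene, deletion or second agent is named for either group, and one cell line stands for the tumour type. The study calls the replicates independent, but neither it nor the labels say whether they were separate cultures, so p-values measure the spread between these libraries, which may be technical.

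HOX genes encode the homeobox transcription factors that set position along the body axis. They sit in 4 clusters, and the miRNAs between them are transcribed in the same direction as their neighbours. An miRNA hairpin is cut into a guide strand, which is loaded into the silencing complex, and a passenger strand from the opposite arm, which is mostly degraded. Base 2 to base 8 of the guide, the seed, pair with target mRNAs. Members of the miR-10 and miR-196 families are known to repress HOX mRNAs, and miR-10b is known for promoting invasion of breast cancer cells.

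The mature sequences of 4 members were found in the RefSeq table for GRCh38.p14 and are shown because the seed sets which member can share targets with another. Capitals mark the seed.
miR-10a-5p: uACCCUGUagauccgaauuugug
miR-10a-3p: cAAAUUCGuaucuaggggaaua
miR-196a-5p: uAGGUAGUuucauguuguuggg
miR-615-3p: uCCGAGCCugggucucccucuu
miR-10b-5p is the remaining member. The 4 seeds differ from each other, and each was held by 1 of the 368 listed miRNAs with a sequence in that table. miR-10b-5p is not among these 368, so the count does not show whether it shares the seed of miR-10a-5p. miR-196a-5p and the unlisted miR-196b-5p share 21 of 22 positions and differ by A12C, counted from 1 at the 5′ end with the base of miR-196a-5p first, so reads of one could be counted for the other. The guide strands of miR-10a and miR-10b are also near-identical, and the rule by which such reads were divided is not given in the sources used here.

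The 5 hairpins that can give the listed members lie on the strand of the surrounding HOX genes and overlap no exon of these genes in the GENCODE annotation of GRCh38. MIR10A (ENSG00000284038), the source of both miR-10a arms, spans chr17:48579838-48579947 on the minus strand. It lies in an intron of 6 of the 13 HOXB3 transcripts, with 1487 bases to HOXB4 and 11309 to HOXB5. MIR196A1 (ENSG00000210741) is in the same cluster at chr17:48632490-48632559, in an intron of 1 of 3 HOXB7 transcripts and 6131 bases from HOXB9. MIR196A2 (ENSG00000207924) is in the HOXC cluster at chr12:53991738-53991847 on the plus strand, in an intron of 1 of 4 HOXC6 transcripts. It is 1458 bases from HOXC10 and 3047 from HOXC9, and its mature 5p strand is the same as that of MIR196A1. The level of miR-196a-5p therefore cannot be assigned to either hairpin. MIR615 (ENSG00000207571) follows in the HOXC cluster at chr12:54033950-54034045, in an intron of HOXC5 and of 1 of 3 HOXC4 transcripts. MIR10B (ENSG00000207744) is in the HOXD cluster at chr2:176150303-176150412, in an intron of 1 of 5 HOXD3 transcripts and 1137 bases from HOXD4.

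A target site is shown for miR-196a-5p because it pairs along the whole miRNA, as a description with no target measured. The window with the most base pairs to it in the HOX 3′ UTRs, in 1 canonical transcript a gene, was in HOXB8, a known target, at chr17:48612770-48612791 on the minus strand.
HOXB8 site: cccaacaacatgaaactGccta
It pairs at 21 of 22 positions, and the base in capitals makes a G:U pair at the remaining 1, inside the seed.

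Levels are given as deposited, as reads scaled by 1 size factor per library, and are called normalized values. Values in each library were whole multiples of 1 step, taken as 1 read. Over the 413 listed miRNAs, which need not be all miRNAs sequenced, they summed to between 710878 and 4778066 reads in the control libraries and between 156442 and 2232934 in the WA libraries. An miRNA at 0 could still be present at up to 3 reads, a limit that corresponds to normalized values of 17.4, 5.36 and 2.25 in WA replicates 1 to 3 and of at most 4.06 in the control libraries. These limits and the intervals below cover counting error only, since the reads carry no molecular identifiers as far as the sources used here say. In each library 0 or 1 of the listed miRNAs was at 1 read, against 4 to 12 at 2 reads. Whether single reads were listed as 0 was not tested. If they were, the 3-read limits are too low and the fold bounds below too high.

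The 6 libraries did not form 2 even groups. WA replicates 1 and 2 resembled each other (Pearson r of log2(value + 1) across 413 miRNAs, which are not independent replicates, of 0.964) and shared the zeros of 34.4% of the listed miRNAs. Their read counts differed by more than sampling noise (chi-square of 13.4 per degree of freedom), so they were kept as 2 libraries. The chi-square was 330.0 for control replicates 2 and 3. It grows with depth, and these control libraries held more reads, so it cannot be compared between the pairs. WA replicate 3 had an r of 0.630 and 0.641 with WA replicates 1 and 2 and of 0.772 to 0.797 with the control libraries. Control replicate 1 had an r of 0.785 and 0.792 with the other control libraries, which had 0.987 with each other. Of 5 miRNAs abundant in mesenchymal-like breast cancer lines, all were read in every library, with a summed level of 303876 to 440111 CPM (reads in every 1000000 of the listed miRNAs) in control and 207153 to 400084 in WA libraries. Of 6 epithelial miRNAs, 4 were listed, and all 4 (miR-200a-3p, miR-200b-3p, miR-200c-3p and miR-429) were at 0 in WA replicates 1 and 2. Their sum was 140 to 1891 CPM in control libraries and 739 CPM in WA replicate 3. Of 6 blood cell miRNAs only miR-486-5p was listed, at 360 to 909 CPM in control and 0 to 729 CPM in WA libraries. The liver miRNA miR-122-5p was at 0.628 to 11.3 CPM in control and 0 to 8.51 CPM in WA libraries, and 0 of 3 muscle miRNAs was listed. miR-155-5p was at 26488 and 24844 in WA replicates 1 and 2 and at 0 to 3.01 in the other 4 libraries. Whether WA replicates 1 and 2 came from the labelled cells was not tested, and this bears on every 0 of these libraries. The part of these library differences in the values below was not tested, and values without WA replicate 3 or without control replicate 1 are given where they change a call or a direction.

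Of the 5 HOX-cluster miRNAs 4 were at 0 in both WA replicates 1 and 2, as were 22.9% of all 327 tested miRNAs, and in WA replicate 3 they parted: both miR-10a arms were within or above the control range, miR-615-3p was below it, and miR-10b-5p was at 0. The member without zeros in the WA group was miR-196a-5p. No listed miRNA was at 0 in both a control and a WA library. Since miR-196a-5p was at 0 in control replicate 1, its lack of zeros in WA libraries is no result. By limma, a linear model across all tested miRNAs, on log2(normalized value + 1), only miR-10b-5p had an adjusted p under 0.05. Over all tested miRNAs 5.2% were called lower in WA cells at that threshold, and the median log2 fold change was -0.91. All 5 members were tested, because each reached a normalized value of 10 in 3 or more libraries. miR-10b-5p passed that filter only through its 3 control libraries, so its groups had to differ.

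**Figure D1:**
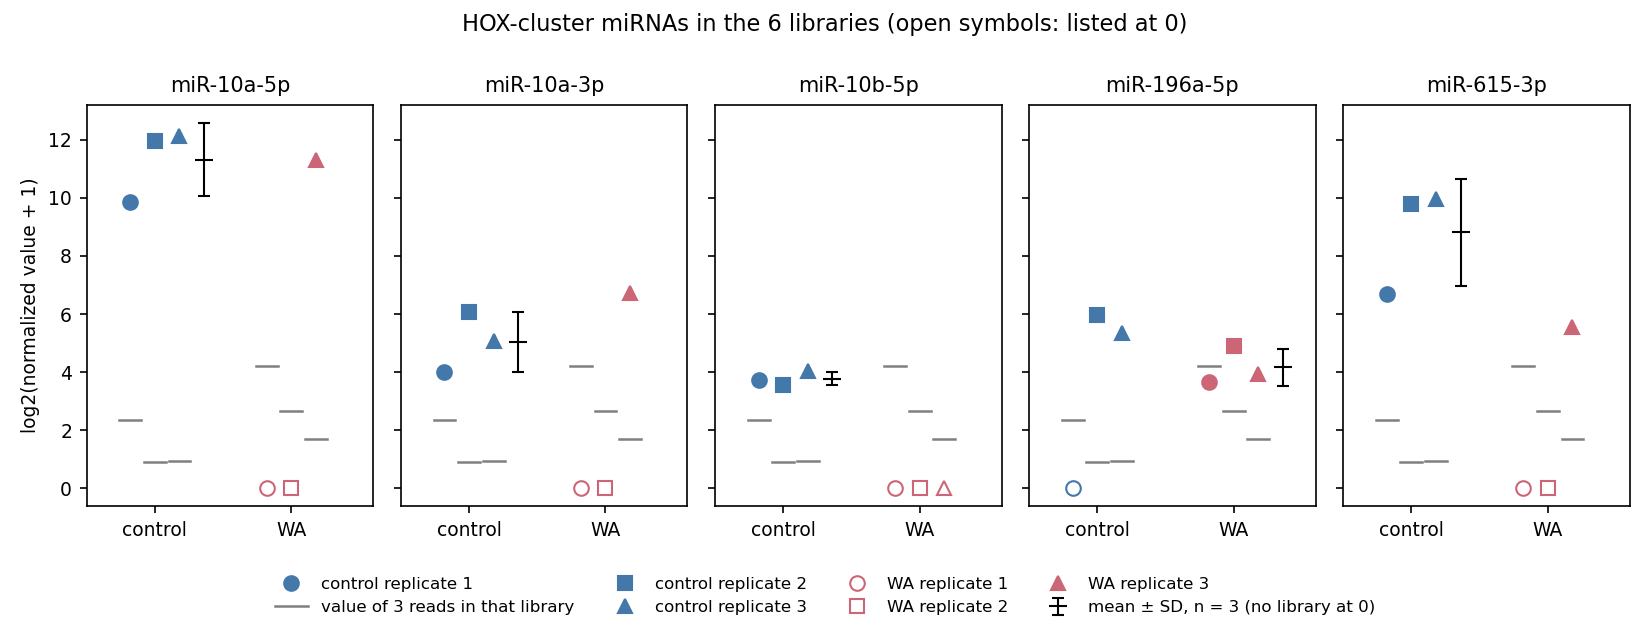
Normalized values, as log2(value + 1), of the 5 HOX-cluster miRNAs in the 3 control (blue) and 3 WA (red) libraries, with open symbols for values listed at 0, grey lines at the value of 3 reads in each library, and the mean ± SD (n = 3) of groups with no library at 0. Both miR-10a arms, miR-10b-5p and miR-615-3p sit at 0 in WA replicates 1 and 2, and for miR-10b-5p the 3-read line of WA replicate 1 (17.4) lies above all 3 control values.

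miR-10a-5p, the guide strand of the HOXB hairpin, was the most abundant member. Its normalized value was 935, 4031 and 4478 in control replicates 1 to 3, from 690, 14115 and 14652 reads. It was listed at 0 in WA replicates 1 and 2 and at 2558, from 3405 reads, in WA replicate 3. The groups therefore overlapped, since WA replicate 3 was above control replicate 1 and below the other 2 control libraries. At the lowest control value, WA replicates 1 and 2 would have held 161 and 523 reads, far above the 3-read limit. The lowest control value was at least 53.7-fold above the 3-read limit of WA replicate 1 and at least 174-fold above that of WA replicate 2. Over all 6 libraries limma gave a log2 fold change of -7.55 with a standard error of 2.92, and an adjusted p of 0.166. The size depends on the 1 added to each value, and was -9.77 with 0.1 added and -5.34 with 10. Without WA replicate 3 the fold change was -11.33 (standard error 0.871), adjusted p = 0.000862 by limma, in a fit where 35.2% of all tested miRNAs were called lower. In that fit miR-10a-5p was at 0 in both WA libraries and reached 10 only in control libraries, so this p is no support for a difference. Fewer cells with the miRNA and less of it per cell cannot be told apart in bulk RNA.

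miR-10a-5p ranked 48 of 413 by its mean control value. Of the 47 miRNAs above it, 1 was at 0 in both WA replicates 1 and 2, namely miR-941. These are the 2 most abundant of the listed miRNAs with that pattern of zeros. The 6 tested miRNAs nearest to miR-10a-5p in control level had log2 fold changes between -7.66 and 0.70, and 2 of them were at 0 in both libraries.

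**Figure D2:**
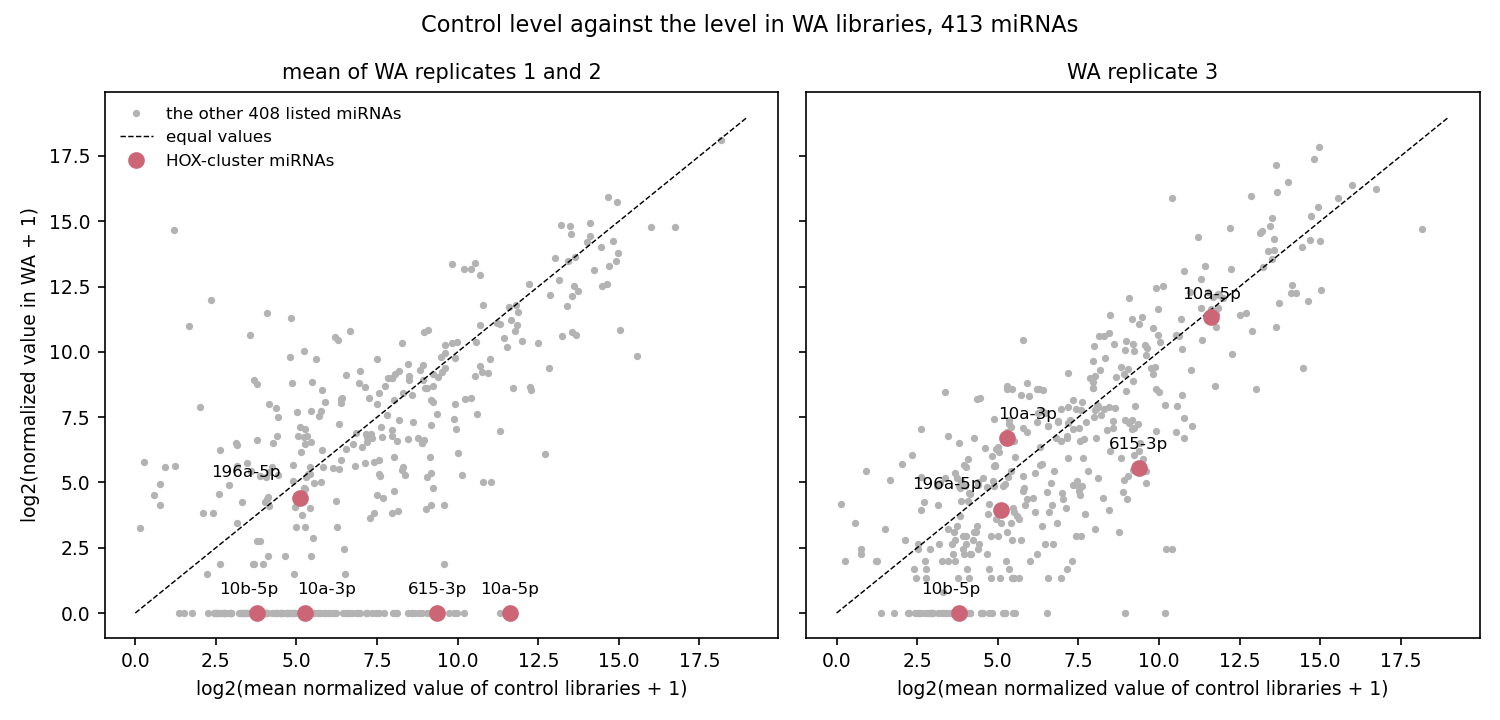
Mean control value of each of the 413 miRNAs against its value in WA, both as log2(normalized value + 1), with the mean of WA replicates 1 and 2 on the left and WA replicate 3 on the right, the HOX-cluster miRNAs in red and equal values on the dashed line. On the left, miR-10a-5p is at the right-hand end of the row of zeros and miR-615-3p further in, while on the right both miR-10a arms are near or above the line and miR-615-3p is below it.

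Reads of miR-10a-5p were also set against those of miR-100-5p in the same library, which needs no size factor. miR-100-5p has a guide strand related to that of miR-10a outside the HOX clusters, and this comparison was chosen with the values known. miR-10a-5p made up 3.43% of the reads of the pair in control replicate 1 (95% Wilson interval 3.19 to 3.69), 2.49% (2.45 to 2.53) in control replicate 2 and 3.07% (3.02 to 3.12) in control replicate 3. In WA replicate 3 it made up 3.20% (3.09 to 3.30), inside the range of the control libraries. In WA replicate 1 it was 0 of 4684 reads, which allows up to 0.0640%, and in WA replicate 2 it was 0 of 16220, which allows up to 0.0185%. The proportion of the pair in WA replicate 3, where miR-100-5p had a normalized value of 77466, was thus within the control range for this reference. Shares against miR-99a-5p or miR-99b-5p were not computed, so this holds for miR-100-5p only. miR-100-5p itself was at 27154 and 28980 in WA replicates 1 and 2, where its partner was not detected.

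miR-10a-3p, the passenger strand, was at 14.9, 66.0 and 32.4 in control replicates 1 to 3. It was listed at 0 in WA replicates 1 and 2 and at 104 in WA replicate 3, above every control library. The groups overlapped, with the WA libraries on either side of the control range. At the lowest control value WA replicate 1 would have held 2.57 reads, so its 0 says little, and WA replicate 2 would have held 8.34. limma gave a log2 fold change of -2.80 with a standard error of 1.93, adjusted p = 0.382. With 0.1 or 10 added to each value in place of 1, the fold change was -4.97 or -0.94. Without WA replicate 3 the fold change was -5.04 with a standard error of 0.744, and limma called it lower with an adjusted p of 0.00339, as it did 35.2% of all tested miRNAs. In that fit miR-10a-3p was above 0 only in control libraries, so this p is no support for a difference.

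The balance of the 2 arms of MIR10A could be read in 4 libraries. The 3p strand made up 1.57% of 701 reads in control replicate 1 (95% Wilson interval 0.878 to 2.79), 1.61% (1.42 to 1.83) in control replicate 2, 0.718% (0.594 to 0.868) in control replicate 3 and 3.92% of 3544 reads (3.33 to 4.61) in WA replicate 3. The guide strand thus made up most of the reads in each of them. The share in WA replicate 3 was 2.62 percentage points above the mean of the control libraries and its interval lay above theirs. WA replicates 1 and 2 held no read of either arm, so the planned permutation test of this difference could not be made.

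miR-10b-5p, from the HOXD cluster, was at 12.2, 10.9 and 15.3 in the control libraries, from 9, 38 and 50 reads, and was listed at 0 in all 3 WA libraries, as were 9.93% of the 413 miRNAs. Its control mean was 12.8 ± 2.27 (SD, n = 3), the narrowest spread of the members. The groups did not overlap, which held for 19.6% of the tested miRNAs in this direction. The limma adjusted p was 0.0276 and the exact two-sided permutation p was 0.1, the smallest that 3 libraries against 3 allow. Since miR-10b-5p entered the fit only through the group where it was high, neither p is support for a difference. The fitted log2 fold change of -3.77 (standard error 0.606) depends on the 1 added to each value and is no bound. Depth limits what its zeros show. At the lowest control value WA replicates 1, 2 and 3 would have held 1.87, 6.07 and 14.4 reads, so the 0 of WA replicate 1 carries no information and WA replicate 3 carries the most. With 3 reads set in each WA library, the control mean was at least 1.53-fold higher than the WA mean, and at least 1.12-fold without WA replicate 3 or 3.36-fold without WA replicate 1. When 1 library at a time was left out, the limma adjusted p was between 0.00151 and 0.175, and it was above 0.05 without control replicate 2 or 3 or WA replicate 1 or 2.

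Set against miR-10a-5p in the same library, miR-10b-5p made up 1.29% of the reads of the pair in control replicate 1 (95% Wilson interval 0.679 to 2.43), 0.268% (0.196 to 0.368) in control replicate 2 and 0.340% (0.258 to 0.448) in control replicate 3. In WA replicate 3 it was 0 of 3405, which allows up to 0.0881%. This share was under all 3 control intervals, in the 1 WA library that held miR-10a-5p.

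miR-615-3p, from the HOXC cluster, was at 103, 892 and 989.7 in control replicates 1 to 3, from 76, 3124 and 3238 reads. It was listed at 0 in WA replicates 1 and 2 and at 45.8, from 61 reads, in WA replicate 3. Every WA library was thus below every control library, as for 19.6% of all tested miRNAs, with an exact two-sided permutation p of 0.1, the smallest possible. No listed miRNA was at 0 in both a control and a WA library. With zeros in WA replicates 1 and 2, only WA replicate 3 could therefore have overlapped the control libraries. This p is thus no support for a difference, and the limma p-values below share this limit. WA replicate 3 was 2.25-fold under the lowest control library and 21.6-fold under the highest. At the lowest control value WA replicates 1 to 3 would have held 17.8, 57.6 and 137 reads. The log2 fold change was -6.97 (standard error 1.89), rank 7 from the lowest of 327. Its size depends on the 1 added to each value, and was -9.19 with 0.1 added and -4.72 with 10. With 1 added, the limma adjusted p of miR-615-3p, 0.0753, missed the threshold. It was 0.00250 without WA replicate 3, where 35.2% of tested miRNAs were called lower, and 0.0919 without control replicate 1, where 4.59% were. Without WA replicate 3 only control libraries held miR-615-3p above 0, so that p is no support for a difference. The limma adjusted p was 0.0498 with scaling to the total of each library, where 7.34% were called lower, and 0.0497 with no filter on low values, where 11.1% were.

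**Figure D3:**
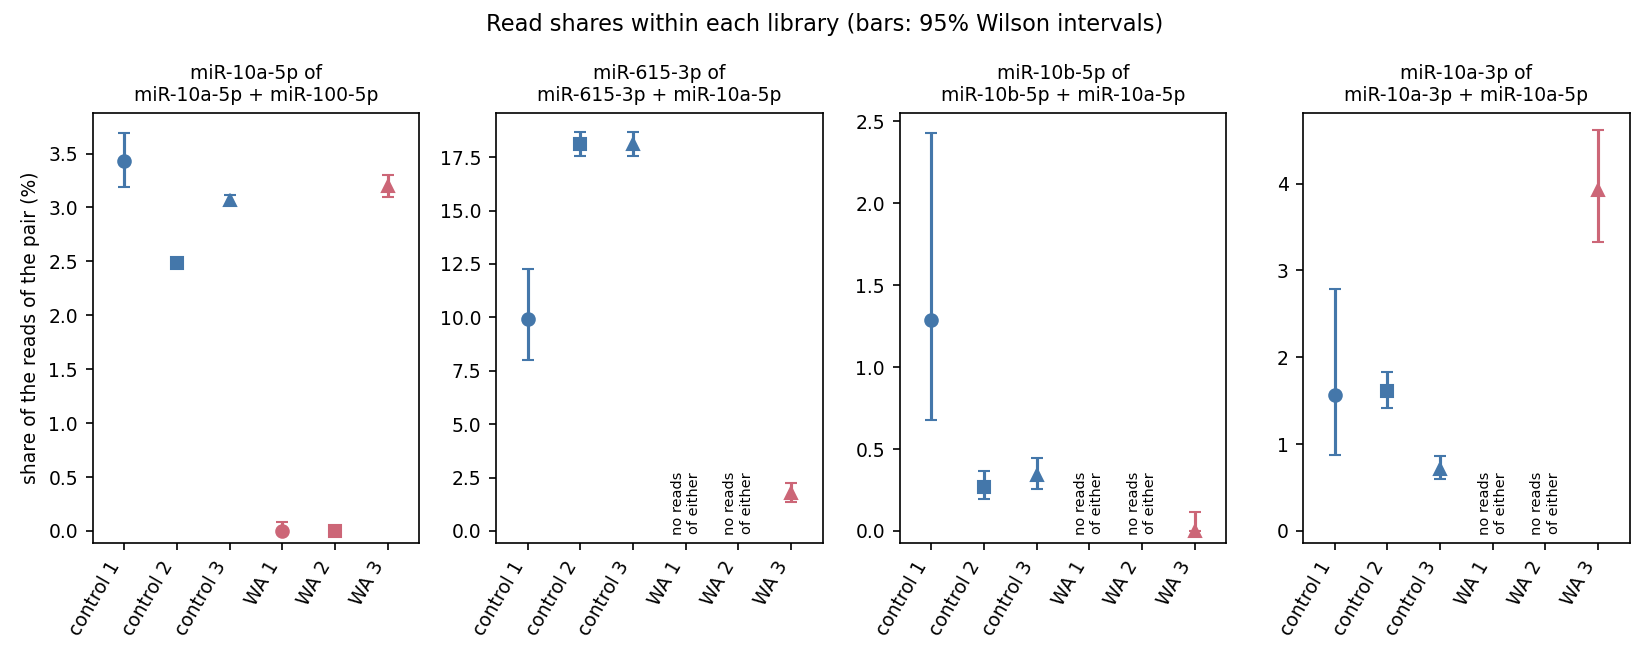
Share of the reads of 4 pairs of miRNAs held by the first of the pair in each library, in percent on a linear axis, with 95% Wilson intervals that cover counting error. miR-10a-5p against miR-100-5p is 3.20% in WA replicate 3 and 0 in WA replicates 1 and 2, while miR-615-3p against miR-10a-5p is 1.76% in WA replicate 3 and from 9.92% to 18.1% in the control libraries.

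The difference between miR-615-3p and miR-10a-5p in WA replicate 3 was also present in their shares of reads, which need no size factor. miR-615-3p made up 9.92% of the reads of the pair in control replicate 1 (95% Wilson interval 8.0 to 12.2), 18.1% (17.6 to 18.7) in control replicate 2 and 18.1% (17.5 to 18.7) in control replicate 3. In WA replicate 3 it made up 1.76% (1.37 to 2.25), under all control intervals. WA replicates 1 and 2 held no read of either. Of the 95 miRNAs at or above miR-615-3p in mean control value, 9 were at 0 in both WA replicates 1 and 2. The 6 tested miRNAs nearest to it in control level had log2 fold changes between -8.74 and 0.85, and 1 of them was called lower. Of these 6, 3 had every WA library below every control library, and 2 were at 0 in both WA replicates 1 and 2.

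miR-196a-5p, which may come from the HOXB or the HOXC hairpin, was the member that did not follow the others. It was listed at 0 in control replicate 1 and at 60.8 and 39.7 in control replicates 2 and 3. No miRNA listed at 0 in a control library was at 0 in a WA library, so its values above 0 in WA libraries are no result. In WA replicates 1 to 3 it was at 11.6, 28.6 and 14.3, from 2, 16 and 19 reads, or 18.2 ± 9.14 (SD, n = 3). All 3 WA values lay between the control values, so the groups overlapped. The log2 fold change was 0.39 (standard error 1.71, 95% interval -3.60 to 4.39) with a limma adjusted p of 0.891. It was -1.49 without control replicate 1, with an adjusted p of 0.366 by limma, so no direction can be given. The 2 reads of WA replicate 1 are under the 3-read limit, while the 16 and 19 reads of the other WA libraries are above it.

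**Figure D4:**
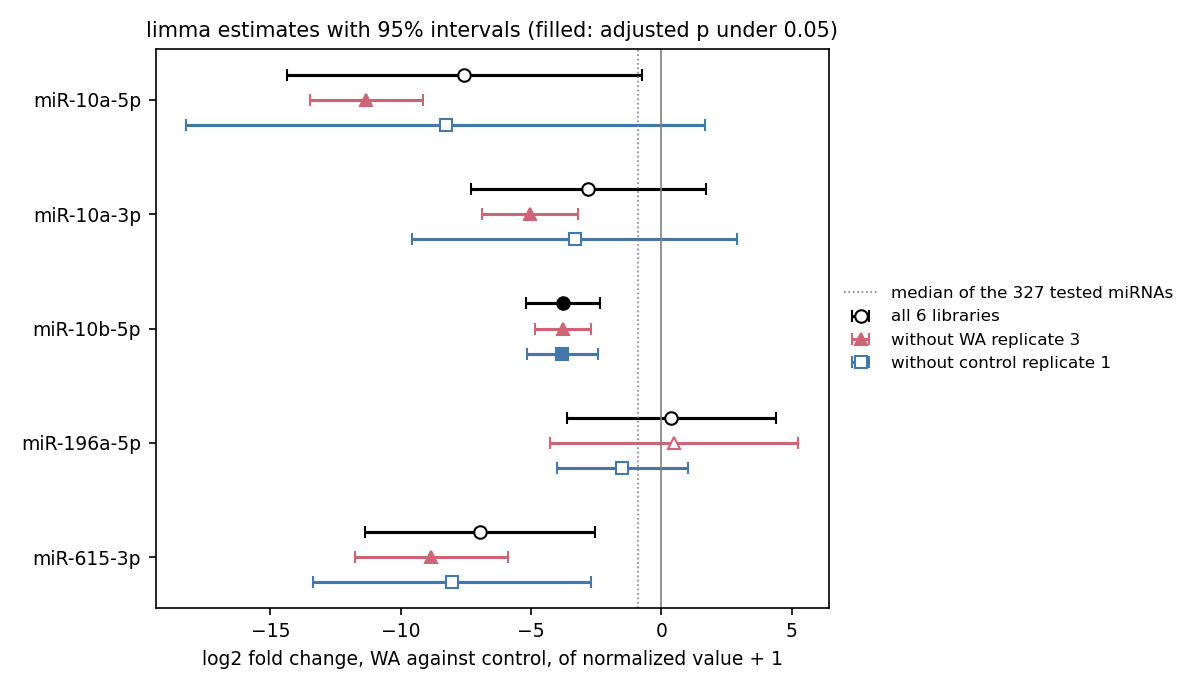
limma log2 fold changes of normalized value + 1, WA against control, with 95% intervals, for all 6 libraries (black), without WA replicate 3 (red) and without control replicate 1 (blue), filled where the adjusted p was under 0.05, and with the median of all 327 tested miRNAs as the dotted line at -0.91. With all libraries only miR-10b-5p is filled. Without WA replicate 3 every member but miR-196a-5p is, in a fit where 35.2% of all tested miRNAs were called lower. The members filled there are above 0 only in control libraries, so those calls are no support for a difference. The point of miR-196a-5p changes side without control replicate 1.

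Together the 5 miRNAs held 0.111%, 0.371% and 0.433% of the listed reads of control replicates 1 to 3. They held 0.00128%, 0.00283% and 0.162% of WA replicates 1 to 3, so WA replicate 3 lay inside the control range. miR-10a-5p made up 87.8%, 79.7% and 80.6% of these reads in the control libraries and 94.0% in WA replicate 3, and miR-615-3p 9.67%, 17.6% and 17.8% against 1.68%. In WA replicates 1 and 2 all 2 and 16 reads were of miR-196a-5p. Within each control library the order of the levels was miR-10a-5p, miR-615-3p and then the other 3. Over the control libraries the ranges of miR-10a-3p and miR-196a-5p overlapped, as did those of miR-196a-5p and miR-10b-5p.

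The miRNAs whose log2(value + 1) followed a member most closely over the 6 libraries were found by Pearson r, given as a description, since all values share the same libraries, depths and many zeros. For miR-10a-5p they were miR-941 (r 0.999), miR-769-5p (0.999) and miR-339-3p (0.997). For miR-615-3p they were miR-7704 (0.997), miR-10399-3p (0.997) and miR-374a-3p (0.996), all 3 at 0 in WA replicates 1 and 2 and under their control values in WA replicate 3. For miR-10b-5p they were miR-1275 (0.996), miR-1910-5p (0.987) and miR-326 (0.981), and for miR-10a-3p miR-3074-5p (0.991), miR-30c-2-3p (0.987) and miR-629-5p (0.984). For miR-196a-5p they were miR-30d-3p (0.995), miR-140-5p (0.993) and miR-30e-5p (0.982). Among the members, miR-10a-5p had an r of 0.967 with its own passenger strand and 0.95 with miR-615-3p, and 0.019 with miR-196a-5p.

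The relatives of miR-10 outside the HOX clusters were read in every library. Of miR-99a-5p, miR-99b-5p and miR-100-5p none had a limma adjusted p under 0.05, with log2 fold changes of 0.70, -1.42 and -1.09 and unadjusted p from 0.249 to 0.757, and their groups overlapped. The same held for miR-125a-5p and miR-125b-5p, which share clusters with them, with log2 fold changes of -0.69 and 1.38. miR-99a-5p was at 11786 and 12905 in WA replicates 1 and 2, beside the zeros of miR-10a-5p, and at 385 in WA replicate 3.

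Among miRNAs known for a role in breast cancer metastasis, 4 of 6 promoting ones were listed and 3 tested. The 1 called lower was miR-10b-5p, with the limit given above, beside 5.2% of all tested miRNAs. miR-9-5p, miR-21-5p and the untested miR-155-5p complete that list. The log2 fold changes of miR-9-5p and miR-21-5p were 0.58 and -1.04, neither was called, and their groups overlapped. The median of the 3 tested was -1.04, near the -0.91 of all tested miRNAs, and 2 of the 3 were negative. For miR-155-5p the lowest WA value, 3.01 in WA replicate 3, was just above the top control value of 2.71. Of 9 that oppose metastasis 8 were tested. Of these 8, 0 was called by limma (18 of all 327 were), and 1 (miR-31-5p) had an unadjusted limma p under 0.05, as had 86 of all 327. Their median log2 fold change was 1.24, beside -0.91 for all tested miRNAs, and 3 of the 8 were negative, beside 198 of all 327. miR-31-5p was at 33.9, 5.43 and 8.86 in control replicates 1 to 3 and at 2777, 3005 and 23.3 in WA replicates 1 to 3, and its groups overlapped.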

How the data were processed

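miRNA levels were taken from 6 small RNA sequencing libraries of MDA-MB-231 cells, 3 control and 3 WA-treated. Adapters were removed by the authors with Trim Galore and reads aligned to GRCh38.p10 with Bowtie. Reads of rRNA, tRNA and other small RNA classes were discarded, and the authors identified known miRNAs and scaled them with DESeq2. The deposited values are thus a normalized signal, reads over the size factor of their library. Each value above 0 was a whole multiple of 1 step per library (100.0% within 0.0001), and reads are counted in these steps. That 1 step is 1 read was assumed, and all read counts, 3-read limits and Wilson intervals rest on it. The authors' ratio or fold column, log2 fold change, p-value and adjusted p-value were not used. limma 3.58.1 in R 4.3.3 was run on log2(value + 1) with a variance trend and no pairing, as a two-sided test, and p-values were adjusted (Benjamini-Hochberg) over the 327 miRNAs that reached 10 in 3 or more libraries, and was tested on simulated data. Planned count-based tests were not run, because the values are normalized and the steps were not taken as recovered counts for a count model. Exact permutation tests and Wilson intervals used scipy 1.17.1 in Python 3.11.15. Coordinates are from GRCh38 (RefSeq GRCh38.p14 and the GENCODE annotation), whose primary chromosomes GRCh38.p10 shares.

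The members and lists were chosen with earlier results of these data known. Besides the members, the miRNAs named are those of fixed lists (relatives of miR-10, metastasis, cell type markers), the 3 closest in pattern to each member and, as ranges, the 6 nearest in control level. miR-941 as the most abundant zero was chosen after its values were seen. Counts of seed matches in HOX UTRs are not reported here.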

Additional observations from a re-analysis of the deposited data

How the results depend on the processing

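The number of miRNAs with a limma adjusted p under 0.05 was 18 of 327. It was 7 with a pseudocount of 0.1 and 7 with one of 10, 53 with no filter, 0 when each library had to reach 10 (29 at an unadjusted p under 0.05), and between 0 and 147 on leaving out 1 library at a time, with 147 without WA replicate 3. It was 21 without control replicate 1, and 0 without each of the other 4 libraries, where 46 to 52 had an unadjusted p under 0.05. For miR-10b-5p the log2 fold change lost its call with a pseudocount of 10 (-1.18, limma adjusted p 0.0688), and lay between -3.87 and -3.64 on leaving out 1 library at a time. The fold change of miR-615-3p gained a call with no filter (-6.97, adjusted p 0.0497), total-count scaling (-7.14, adjusted p 0.0498) and, by limma, without WA replicate 3, over a leave-one-out range of -8.82 to -6.04. Those of miR-10a-5p and miR-10a-3p did so without WA replicate 3, over ranges of -11.33 to -5.66 and -5.04 to -1.68. Without WA replicate 3 these members and miR-615-3p were above 0 only in control libraries, so those calls are no support for a difference. miR-196a-5p turned to -0.27 with a pseudocount of 10 and to -1.49 without control replicate 1, over a range of -1.49 to 1.48. Requiring a value of 10 in every library left no member to test.

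With the replicate number as a block, 24 of 327 miRNAs were called, 21 of them lower in WA cells. Of the members, miR-10a-5p (-7.55), miR-10b-5p and miR-615-3p (-6.97) each had a limma adjusted p of 0.0478. miR-10b-5p reached 10 only in control libraries, so its p is no support for a difference. For miR-10a-5p and miR-615-3p, zeros in WA replicates 1 and 2 meant control values above 0, which limits their p too. Same-numbered libraries did not deviate together (r of -0.0692, 0.0571 and -0.0874), which gives no sign of pairing. With so few and such unlike libraries in each group, these values cannot show whether the numbers mark pairs. The summed share of the members, WA minus control, was -0.249 percentage points and -0.572 with the 10 most abundant miRNAs left out of the total. The lower bound for miR-10b-5p, 1.53-fold, was 1.26-fold with total-count scaling and between 1.12 and 3.36 on leaving out 1 library at a time. Upper-quartile scaling moved the median log2 fold change of all tested miRNAs from -0.91 to -0.66 and changed no member's call. The causes of these changes were not tested. The planned trimmed-mean scaling and the count-based tests were not run.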

Other observations

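In the metastasis list, miR-155-5p was at 2.71, 0 and 1.22 in control replicates 1 to 3 and at 3.01 in WA replicate 3, against 26488 and 24844 in WA replicates 1 and 2. These are the 2 libraries in which 4 of the 5 HOX-cluster miRNAs and the 4 listed epithelial miRNAs were at 0. miR-155-5p was not tested, because it had a value of at least 10 in fewer than 3 libraries. miR-126-3p was at 58.0 and 17.9 in WA replicates 1 and 2 and at 5834 in WA replicate 3, and miR-148a-3p was at 318 in control replicate 1 against 33431 and 34874 in control replicates 2 and 3.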
